A study of Mus musculus with 6 samples.

Results

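The cartilage matrix outside its collagens was examined through 10 genes, Acan, Hapln1, Matn1, Matn3, Matn4, Comp, Chad, Cnmd, Epyc and Fmod, of the 22367 protein-coding genes in the mm9 annotation. They were chosen by name, as genes of cartilage proteoglycans and of the proteins that bind them. Earlier results of these data were known when they were chosen. All 10 were found in the annotation, Cnmd under its older symbol Lect1. To each gene belonged its mm9 gene body and 100 kb on either side, and a peak was counted in the window if its summit lay there. The windows were 204 to 271 kb long, with a median of 220 kb, against a median of 215 kb over all protein-coding genes.

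In cartilage the large proteoglycan aggrecan, the product of Acan, binds hyaluronan, and the link protein made from Hapln1 steadies that bond. Matrilins (Matn1, Matn3 and Matn4) and cartilage oligomeric matrix protein (Comp) are oligomers that join proteoglycans and collagen fibrils, while fibromodulin (Fmod), epiphycan (Epyc) and chondroadherin (Chad) are small leucine-rich proteins of the same matrix, and chondromodulin (Cnmd) is a membrane-derived inhibitor of vessel growth. Sox9 is the transcription factor that chondrocytes need in order to form and to make this matrix, and upstream enhancers of Acan that bind it are known. Bapx1 (Nkx3-2) is a homeodomain transcription factor of the sclerotome, the tissue from which the vertebral column arises.

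Chromatin immunoprecipitation with sequencing (ChIP-seq) had been done in 6 libraries, 1 per condition. For E12.5 vertebral columns of CD1 embryos, Bapx1 that carried S-peptide and calmodulin-binding tags at its own locus was precipitated through the S-peptide, and the control was the same antibody on wildtype embryos. The study pooled the dissected tissue of many embryos for each of these libraries. Sox9 was precipitated with an antibody to the protein itself from wildtype E12.5 embryos, with IgG as control, although the tissue label of both libraries also lists limb. The third pair was made in the mouse fibroblast line NIH3T3, where V5-tagged Bapx1 was overexpressed and precipitated through the V5 tag. Its control was precipitated in the same way, from cells that 1 label calls transfected with an empty vector and another calls wild type. Sample titles call the controls input, whereas their descriptions name an antibody or IgG, and the ratios here take the descriptions as right. The libraries held 9124697 to 24855032 tags, the positions of uniquely mapped reads. Replicates are lacking (1 library per condition), so no p-values are given and every interval is an exact 95% interval that covers counting error only. The libraries hold bound DNA and no RNA, so neither the expression of the 10 genes nor the markers of the tissue were measured. A site bound in fewer cells and a site bound more weakly in each cell cannot be told apart.

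The Sox9 and IgG positions do not lie on mm9, and they were used at a gene only after their displacement had been measured. The displacement was taken from the tags around each peak, matched to the tags of the mm9 vertebral column libraries with the summit itself left out. It was clear at 3352 of 3722 Sox9 peaks (90.1%), and at 3216 of these it exceeded 1 kb. At the 16 Sox9 peaks in the windows of the 10 genes it ranged from 19.2 kb at Matn3 to 7.27 Mb at Acan. Measured from the IgG tags alone it was clear at 9 of these 16 peaks and differed by at most 20 bp, and measured against the NIH3T3 libraries it was clear at 6 and differed by at most 40 bp. The Sox motif (A or T at the first, second and sixth positions, CAA at the third to the fifth and G at the last), searched on both strands within 100 bp, occurred at 48.8% of all moved summits and in 26.1% of windows of the same length 500 bp away, whereas at the deposited coordinates the shares were 28.4% and 26.5%. Distances of Sox9 peaks from genes below are those of the moved summits. List-wide tag ratios and motif shares at moved Sox9 peaks cover the 3352 peaks, and motif shares at deposited coordinates all 3722. Where Sox9 and IgG tags are read at all Bapx1 peaks below, only peaks with a clear displacement count. These are 2508 peaks of the vertebral column and 19954 of NIH3T3 cells.

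Sox9 peaks lay in the windows of 8 of the 10 genes, all except Matn1 and Fmod, whereas 25.2% of all protein-coding genes held a Sox9 peak in such a window. The 8 genes held 16 Sox9 peaks. The median was 1.5 peaks per gene, against 0 over all genes. Acan held 5 of them, and Matn3, Matn4, Cnmd and Epyc held 2 each, so that 5 of 10 genes had at least 2 Sox9 peaks, against 6.74% of all genes. Bapx1 peaks of the vertebral column lay in the windows of 4 genes, Matn4, Comp, Chad and Fmod, with 1 peak each, against 25.1% of all genes. With 50 kb either side they lay at 2 (16.1% of all genes) and with 200 kb at 6 (39.5%). With the authors' false discovery rate (FDR) of at most 5% they lay at 0 (0%). Both factors had a peak at 3 genes, Matn4, Comp and Chad, against 9.79% of all genes. Matn1 had a peak of neither embryo list. In NIH3T3 cells Bapx1 peaks, 26 in all, lay in the windows of all 10 genes, but 81.0% of all protein-coding genes held one as well. The Sox9 count of 8 was 4 with the displacement from the IgG tags alone (16.8% of all genes) and 4 against the NIH3T3 libraries (8.46%). It was 2 with an FDR of at most 5% (5.92%) and 9 with 200 kb either side (40.2%). The 10 genes were named for their role in cartilage, with earlier results of these data known, and their number is small. These counts are therefore a description.

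**Figure D1:**
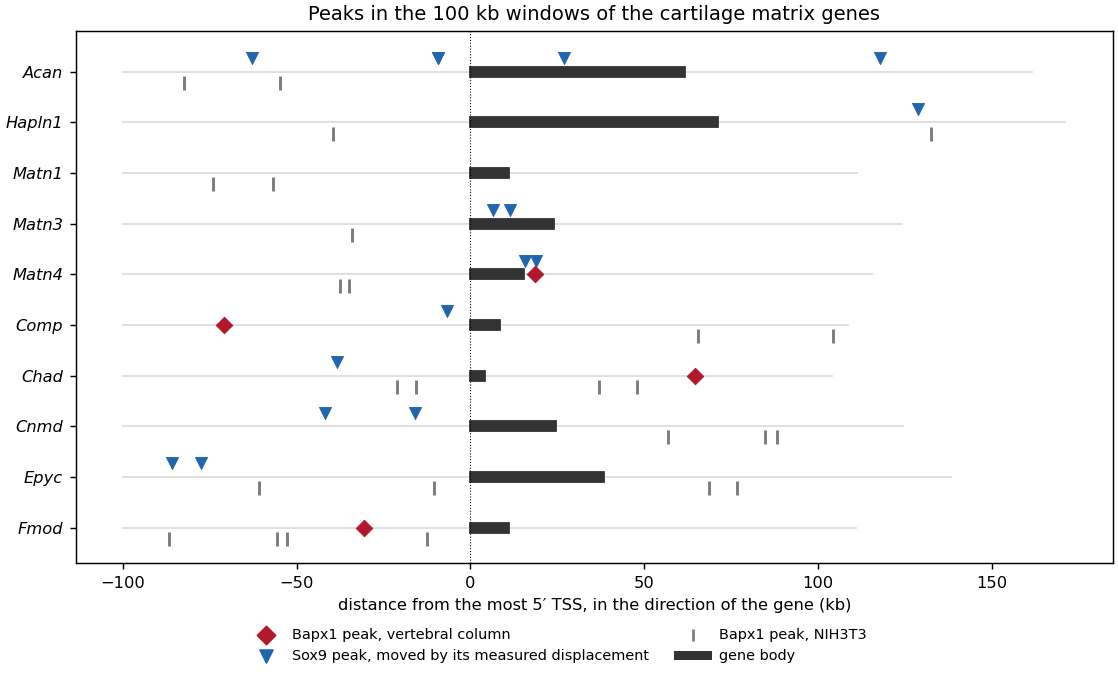
Peaks in the window of each gene by distance from its most 5′ transcription start site (TSS), in kb and in the direction of the gene, with the gene body as a black bar. Diamonds mark the 4 Bapx1 peaks of the vertebral column, triangles the 16 Sox9 peaks after the displacement was corrected and ticks the 26 Bapx1 peaks of NIH3T3 cells, and only at Matn4 do a diamond and a triangle coincide. The pair of triangles 9.42 and 9.23 kb upstream of Acan falls on 1 spot at this scale.

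No peak of any list lay within 5 kb of the TSS of one of the 10 genes. Neither the share of all genes with a peak that near nor the list-wide shares for the nearest TSS were counted. These counts and those of the nearest TSS below therefore describe the 10 genes only. The nearest Sox9 peak was 6.44 kb from a TSS (Matn3), the nearest NIH3T3 peak 10.6 kb (Epyc) and the nearest Bapx1 peak of the vertebral column 18.6 kb (Matn4). In 9 of the 16 Sox9 peaks the nearest TSS of a protein-coding gene was that of the matrix gene itself, at Acan, Matn3, Comp and Cnmd. The other 7 peaks were nearer to another gene. Of the 4 Bapx1 peaks of the vertebral column only that of Fmod was nearest to the matrix gene, and of the 26 NIH3T3 peaks 6 were. A window therefore names a neighbourhood and does not assign a peak to the gene.

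Acan (chr7:86198369-86259985, plus strand) held the most Sox9 peaks. The strongest of them lay 63.0 kb upstream of the TSS in intergenic sequence. Within 200 bp of its summit the Sox9 library had 36 tags and the IgG library 4, which after scaling to depth was a ratio of 9.38 (3.36 to 36.3). The Bapx1 library had 11 tags there and its wildtype control 5 (1.83, 0.587 to 6.73), and the NIH3T3 libraries had 0 and 2. The site was called on the Sox9 and IgG libraries themselves, so their ratio is a description, as at every Sox9 peak below. The interval of Bapx1, for which the site was not chosen, included 1. MACS, the program with which the authors called peaks, gave it an FDR of 4.05%, where FDR is the share of peaks expected to be false from calls with ChIP and control exchanged.

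A pair of weak Sox9 peaks lay 9.42 and 9.23 kb upstream of Acan with summits 187 bp apart. Taken as 1 region of 588 bp they held 17 Sox9 tags and 5 IgG tags, a ratio of 3.54 (1.26 to 12.3). Their FDR was 100% for both. In the same region Bapx1 had 9 tags and wildtype 4 (1.87, 0.523 to 8.33). An intron of Acan held a further Sox9 peak 26.9 kb from the TSS, with 16 Sox9 and 2 IgG tags (8.34, 1.96 to 74.8). At this intronic site Bapx1 had 11 tags and wildtype 1 (9.16, 1.33 to 394), so both ChIP libraries exceeded their controls, although no Bapx1 peak had been called. The FDR of this Sox9 peak was 89.5%, and the Bapx1 ratio rested on 1 wildtype tag. The fifth Sox9 peak, 118 kb from the TSS, lay 22165 bp from the TSS of Mfge8, beyond the end of Acan, with 18 Sox9 and 3 IgG tags (6.26, 1.83 to 33.2).

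The window of Hapln1 (chr13:89680241-89751437, plus strand), the gene of the link protein, held 1 Sox9 peak, and this lay in an intron of the neighbouring gene Vcan. Vcan encodes versican, another large proteoglycan that binds hyaluronan. The summit was 129 kb from the TSS of Hapln1 and 8740 bp from the nearest TSS of Vcan. Sox9 had 17 tags there and IgG 2 (8.86, 2.1 to 79.1). Bapx1 had 12 tags and wildtype 2 (5.0, 1.11 to 46), again without a called Bapx1 peak. The FDR of this Sox9 peak was 53.2%. Within 100 bp of this summit the Sox motif occurred 2 times.

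Among the matrilins, Matn3 (chr12:8954735-8978834, plus strand) held 2 Sox9 peaks in its own introns, 6.44 and 11.5 kb from the TSS. The former had 17 Sox9 tags and 1 IgG tag (17.7, 2.78 to 741). The latter had 14 Sox9 tags and 0 IgG tags, so that no upper limit exists. The exact lower limit of the ratio was 3.46. With a floor of 3 IgG tags in place of 0, and counting error left aside, the ratio would be 4.87. Bapx1 had 6 tags against 1 of wildtype at the former and 3 against 5 at the latter, with intervals that included 1. Matn1 (chr4:130500300-130511390, plus strand) had no peak of Sox9 or of Bapx1 in the vertebral column.

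Matn4 (chr2:164215129-164230660, minus strand) was the only one of the 10 genes at which a Bapx1 peak of the vertebral column and a Sox9 peak overlapped. Over the whole list 227 of the 2815 Bapx1 peaks overlapped a moved Sox9 peak, or 8.06%. The overlap at Matn4 was 397 bp long and the summits were 253 bp apart, at 18.6 kb (Bapx1) and 18.9 kb (Sox9) from the TSS of Matn4. This is past the 3′ end of Matn4, in an intron of Slpi, which encodes a secreted protease inhibitor, and its TSS was 2788 bp from the Bapx1 summit.

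At the Sox9 summit the Sox9 library had 59 tags and IgG 7 (8.79, 4.01 to 22.8). The authors' list gave it 67 tags, 395 for 10 times −log10 (p) and an FDR of 1.01%, and by p it ranked 198 of the 3722 Sox9 peaks, the highest rank among the 16. At the Bapx1 summit (chr2, position 164212043) Bapx1 had 22 tags and wildtype 7 (2.62, 1.08 to 7.26). There Sox9 had 31 tags and IgG 6 (5.39, 2.21 to 15.8), and in NIH3T3 cells Bapx1 had 7 tags and V5 1 (9.79, 1.26 to 441), without a called peak. The Bapx1 and Sox9 ratios describe sites called on the same libraries, and of the readings at this summit that of NIH3T3 cells was the one that had no part in choosing it. That reading rested on 1 V5 tag. At the nearby Sox9 summit NIH3T3 Bapx1 had 6 tags and V5 7 (1.20, 0.333 to 4.17), so it did not hold across the overlap. The other Sox9 peak lay 15.8 kb from the TSS of Matn4 and 78 bp from the TSS of Slpi, with 16 Sox9 tags and 1 IgG tag (16.7, 2.59 to 700), and there Bapx1 had 9 tags and wildtype 7.

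The 300 bases centred between both Matn4 summits are shown because they lie within the only stretch of the windows under peaks of both factors. They span chr2:164211767-164212066 of mm9 on the plus strand, with the Bapx1 summit at base 277 and the moved Sox9 summit near base 24. Capitals would mark TGAGTG or TAAGTG, the core that NK homeodomain factors are known to bind (called the Bapx1 motif here), or the Sox motif, on either strand, and the stretch holds neither. Within 100 bp of the Bapx1 summit the Sox motif occurred 1 time, past the end of this stretch.
Matn4 overlap: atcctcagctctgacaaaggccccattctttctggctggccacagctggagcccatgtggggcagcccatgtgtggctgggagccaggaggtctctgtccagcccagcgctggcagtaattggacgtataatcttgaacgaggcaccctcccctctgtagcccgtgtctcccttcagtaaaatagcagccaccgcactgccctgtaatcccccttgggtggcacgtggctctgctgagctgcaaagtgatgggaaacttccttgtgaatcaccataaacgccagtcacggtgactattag
Of windows of 300 bases centred on the summits of all vertebral column Bapx1 peaks, 51.2% held the Bapx1 motif and 27.6% the Sox motif. The Matn4 stretch is not centred on the Bapx1 summit, so these shares are not a like comparison.

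Comp (chr8:72897447-72905964, plus strand) held a Sox9 peak 6.75 kb upstream of its TSS, nearer to Comp than to any other gene. Sox9 had 22 tags there and IgG 5 (4.59, 1.70 to 15.5). Bapx1 had 11 and wildtype 6 (1.53, 0.518 to 5.03). The Bapx1 peak in the window of Comp, at position 72826396, lay 71.1 kb upstream and only 8 bp from the TSS of Ddx49, which encodes an RNA helicase. It had 27 Bapx1 and 8 wildtype tags (2.81, 1.24 to 7.16), 10 Sox9 and 4 IgG tags (2.61, 0.752 to 11.4), and 2 tags in either NIH3T3 library. This was the only one of the 4 Bapx1 peaks with the Bapx1 motif within 50 bp of the summit, and the 30 bases around it, chr8:72826354-72826383 on the plus strand, are shown with the motif in capitals.
Comp Bapx1 peak: agaacctagaaaTGAGTGcttccggcgcgt

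At Chad (chr11:94426361-94430441, plus strand) the Sox9 peak lay 38.4 kb upstream, 4859 bp from the TSS of Mycbpap. It had 40 Sox9 and 9 IgG tags (4.63, 2.21 to 10.9), and 10 Bapx1 and 6 wildtype tags (1.39, 0.457 to 4.65). The Bapx1 peak in the window of Chad, at position 94491060, lay 64.7 kb downstream and 21 bp from the TSS of Lrrc59, which encodes a protein of the endoplasmic reticulum. It had 28 Bapx1 and 9 wildtype tags (2.59, 1.19 to 6.24), 3 Sox9 and 5 IgG tags, and 7 and 12 tags in the NIH3T3 pair. Chad and Comp thus had peaks of both factors in their windows, but these lay far apart, and the Bapx1 peaks were at the promoters of other genes.

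Fmod (chr1:135933831-135944854, plus strand) had the highest ratio of the 4 Bapx1 peaks. Its summit, at position 135903239, lay 30.6 kb upstream in intergenic sequence, and Fmod was the gene with the nearest TSS. Bapx1 had 28 tags and wildtype 2 (11.7, 2.94 to 101). Sox9 and IgG had 8 and 5 tags there (1.67, 0.481 to 6.48) and the NIH3T3 pair had 1 and 3. The Bapx1 ratio describes a site that was called on that pair of libraries, and the intervals of the other ChIP libraries included 1. No Sox9 peak lay in the window of Fmod. The 101 bases around the summit, chr1:135903189-135903289 on the plus strand, are shown as those of the strongest Bapx1 peak of the 10 genes, and neither motif occurs in them.
Fmod Bapx1 peak: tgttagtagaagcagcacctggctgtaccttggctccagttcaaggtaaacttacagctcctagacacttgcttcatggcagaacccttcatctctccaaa

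Epyc (chr10:97106702-97145088, plus strand) lies beside Lum, the gene of lumican, another small leucine-rich proteoglycan. Both Sox9 peaks in its window were nearer to Lum, at 1056 and 7218 bp from its TSS, and lay 77.5 and 85.8 kb upstream of Epyc. The former, in an intron of Lum, had 21 Sox9 tags and 1 IgG tag (21.9, 3.52 to 905) and held the Sox motif 2 times within 100 bp. The latter had 12 Sox9 and 6 IgG tags (2.09, 0.724 to 6.77). Bapx1 had 7 tags at either site, against 4 and 1 of wildtype.

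Cnmd (Lect1, chr14:80037497-80061977, minus strand) had Sox9 peaks 16.0 and 41.8 kb upstream, and its own TSS was the nearest to both. At the nearer site Sox9 had 22 tags and IgG 1 (22.9, 3.71 to 947), the highest finite ratio among the 16 Sox9 peaks. This rank rests on 1 IgG tag, so it is uncertain. Bapx1 had 13 tags and wildtype 4 there (2.71, 0.836 to 11.4). At the farther site Sox9 had 21 tags and IgG 8 (2.74, 1.16 to 7.15), with an FDR of 100%. Here Bapx1 had 25 tags and wildtype 8 (2.60, 1.14 to 6.68), a ratio like those of the called peaks at Matn4, Comp and Chad, although no Bapx1 peak had been called.

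**Figure D2:**
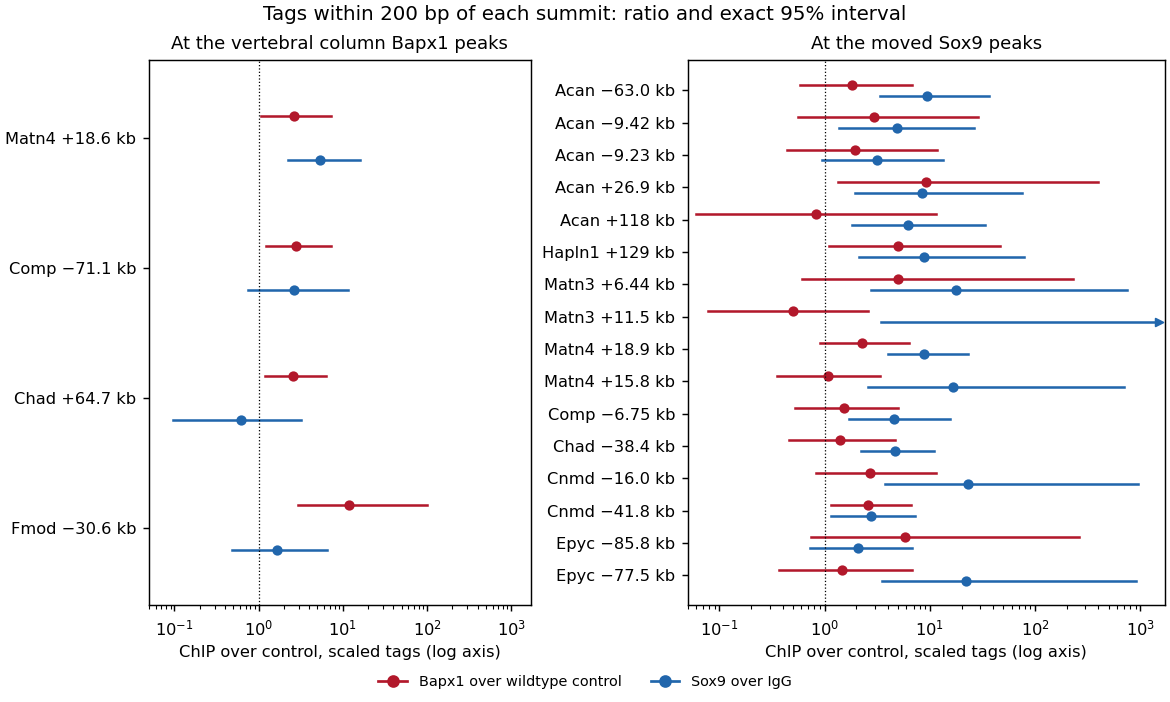
Ratio of ChIP to control tags within 200 bp of each summit, scaled to depth, on a log axis with exact 95% intervals, for Bapx1 over wildtype (red) and Sox9 over IgG (blue). At the left are the 4 Bapx1 peaks of the vertebral column and at the right the 16 Sox9 peaks; an arrow marks the Matn3 peak with 0 IgG tags. Red at the left and blue at the right describe peaks called on those same libraries.

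Read over all sites, the Sox9 peaks of the 10 genes also carried more Bapx1 than control tags. Summed over the 16 sites Bapx1 had 160 tags and wildtype 64, a ratio of 2.08 (1.55 to 2.83), and Bapx1 exceeded wildtype at 14 of the 16. Over all Sox9 peaks the ratio was 1.61, which lies within that interval, and Bapx1 exceeded wildtype at 72.1%. The Bapx1 signal at the Sox9 sites of the matrix genes was therefore not told apart from that at other Sox9 sites. Leaving out the Matn4 site that overlaps a Bapx1 peak gave 2.06 (1.5 to 2.85). The windows of the pair of weak Acan peaks overlap, so their shared tags were counted repeatedly in each sum over the 16 sites. Leaving out the peak of this pair nearer to the TSS gave 2.09 (1.54 to 2.86). By single sites the interval lay above 1 at 3 of 16, in the intron of Acan, in Vcan and 41.8 kb upstream of Cnmd, against 13.8% of all Sox9 peaks.

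At the 4 Bapx1 peaks Sox9 had 52 tags in all and IgG 20, a ratio of 2.71 (1.59 to 4.79), and Sox9 exceeded IgG at 3 of the 4, against 66.5% of all Bapx1 peaks. This rested on Matn4, without which the ratio was 1.56 (0.758 to 3.33), close to the 1.68 over all Bapx1 peaks. With tags counted between the deposited peak limits, which at Matn4 take in the Sox9 summit, the ratio at all 4 was 4.38 (2.66 to 7.53). In their own libraries the 4 Bapx1 peaks had a summed ratio of 3.36 (2.17 to 5.39), against 3.98 over the list. The 16 Sox9 peaks had 6.53 (4.93 to 8.80) over IgG, against 7.76 over the list. Without the Acan peak 9.23 kb upstream their ratio was 6.79 (5.07 to 9.24). These last values describe peaks that were called on the same libraries.

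**Figure D3:**
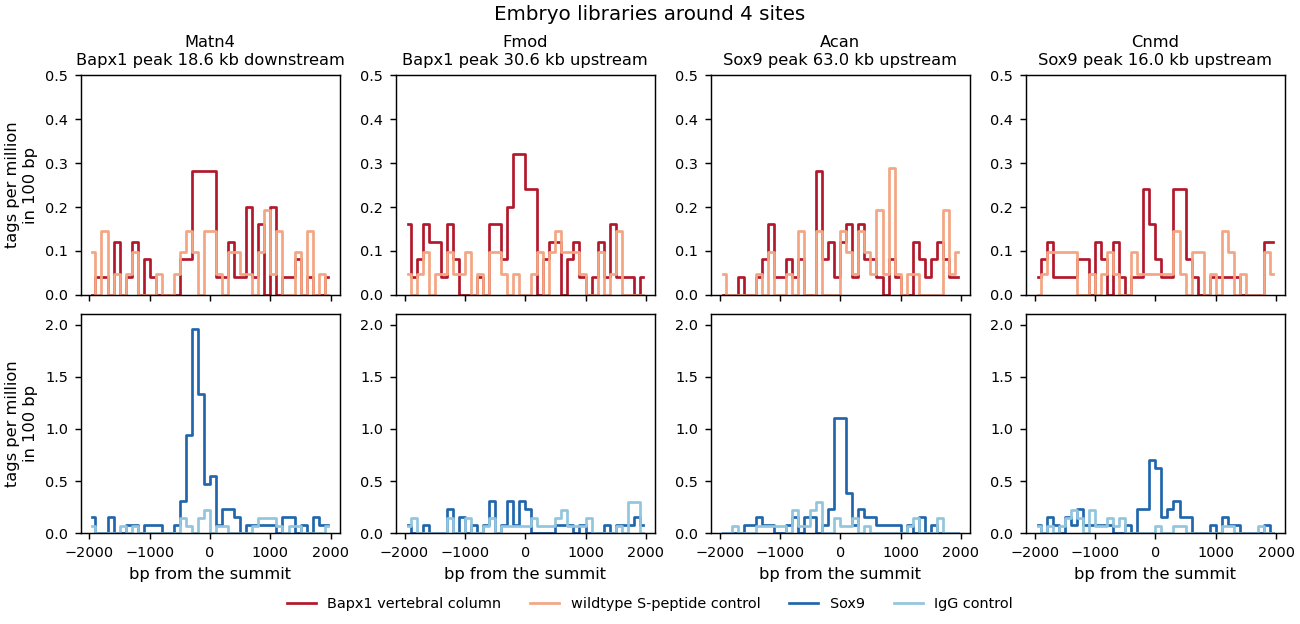
Tags in bins of 100 bp around 4 summits, scaled to the depth of each library, against the distance from the summit in bp, for Bapx1 and its wildtype control (upper row) and for Sox9 and IgG (lower row, another scale). At Matn4 both rows peak, with Sox9 to the left of the Bapx1 summit, at Fmod only Bapx1 does, and at the Sox9 peaks of Acan and Cnmd Sox9 rises at the summit.

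The authors' values set limits to the embryo peaks. The 4 Bapx1 peaks had an FDR of 61.8 to 69.8%, and over the list of 2815 none was at most 5%. By p the Fmod peak ranked 544, that of Comp 860, that of Matn4 1410 and that of Chad 1462 of 2815. Of the 16 Sox9 peaks 2 had an FDR of at most 5%, the strongest of Matn4 and of Acan, or 12.5% against 18% of the list. A p of at most 1e-10 was given to 7, or 43.8% against 39.6% of the list. These 7 lay at Matn4, Acan, Chad, Cnmd, Epyc, Comp and Matn3, so that 7 of the 10 genes held such a peak, against 11.8% of all genes.

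In the windows of the 10 genes no NIH3T3 Bapx1 peak coincided with an embryo peak. How often peaks coincide over the whole lists was not counted, so this only describes these windows. The closest pair was the Sox9 peak in Vcan and an NIH3T3 peak 3695 bp from it, and the NIH3T3 peak nearest to a vertebral column Bapx1 summit was 16880 bp away, at Chad. The strongest NIH3T3 peak of the 10 genes lay 54.7 kb upstream of Acan, with 28 Bapx1 and 3 V5 tags (13.1, 4.03 to 67.1) and 5 tags each of vertebral column Bapx1 and wildtype. The other peak of Acan was 82.3 kb upstream and had 11 Bapx1 tags and 1 V5 tag. At Hapln1 the strongest lay 39.7 kb upstream, with 20 Bapx1 tags and 1 V5 tag (28.0, 4.48 to 1160).

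Of the other peaks, Matn1 had 2 in these cells, the stronger 56.9 kb upstream with 19 Bapx1 and 3 V5 tags (8.86, 2.61 to 46.8). At that site the vertebral column Bapx1 library had 16 tags and wildtype 3 (4.44, 1.27 to 23.8), although Matn1 had no embryo peak, and this was the only one of the 26 NIH3T3 sites at which the interval of vertebral column Bapx1 lay above 1, against 2.19% of the list. The only NIH3T3 peak of Matn3 lay 34.0 kb upstream with 15 and 3 tags. Matn4 had 2 in introns of Sdc4, the stronger 34.9 kb upstream with 9 and 3 tags, and the weaker 37.6 kb upstream, where vertebral column Bapx1 had 2 tags and wildtype 9 (0.185, 0.0195 to 0.894), the only interval of the 26 below 1, against 0.888% of the list. Comp had 2, in an intron of Crtc1 and 982 bp from the TSS of Klhl26, the latter with 13 and 4 tags.

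The small leucine-rich genes had 4 NIH3T3 peaks each. At Chad the nearest, 15.8 kb upstream, lay 89 bp from the TSS of Rsad1 and had 12 Bapx1 tags and 1 V5 tag, and the one with the smallest p, 47.8 kb downstream, had 10 and 3. At Epyc the peak 10.6 kb upstream was both the nearest and the strongest, with 24 Bapx1 and 5 V5 tags (6.72, 2.51 to 22.5). At Fmod the nearest, 12.6 kb upstream, had 15 and 9 tags (2.33, 0.956 to 6.04), and the strongest, 52.9 kb upstream, had 19 and 2 (13.3, 3.21 to 118). Cnmd had 3, of which the one nearest to its TSS, 56.8 kb downstream in an intron of Sugt1, had 9 and 3 tags and the one with the smallest p, 88.1 kb downstream in an intron of Elf1, had 14 and 4.

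All 26 NIH3T3 peaks had an FDR of at most 5%, as had 97.7% of the list. A p of at most 1e-10 was given to 6 (23.1%, against 21.7% of the list), those of Acan, Fmod, Hapln1, Matn1, Epyc and Chad named above. The Bapx1 motif, TGAGTG or TAAGTG on either strand, lay within 50 bp of 15 of the 26 summits, or 57.7% (36.9 to 76.6), and in 5.77% of the windows 500 bp away. Over all NIH3T3 summits it lay at 64.4%, with 10.7% in the flanks, so the share at the matrix genes did not stand apart. At the 4 vertebral column summits it lay at 1, against 31.3% of that list. Each of the 6 peaks with the smallest p held it, a share that was not counted over the peaks of such p in the list. Their 101 bases on the plus strand of mm9 are shown with the motif in capitals, which read CACTCA or CACTTA where it lies on the other strand.
Acan, chr7:86143593-86143693: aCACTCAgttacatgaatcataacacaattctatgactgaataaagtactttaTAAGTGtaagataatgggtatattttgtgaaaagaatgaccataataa
Fmod, chr1:135880904-135881004: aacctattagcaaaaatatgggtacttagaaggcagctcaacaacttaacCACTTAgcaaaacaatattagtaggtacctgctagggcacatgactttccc
Hapln1, chr13:89640493-89640593: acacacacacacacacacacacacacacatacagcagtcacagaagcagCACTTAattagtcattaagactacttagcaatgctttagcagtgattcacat
Matn1, chr4:130443305-130443405: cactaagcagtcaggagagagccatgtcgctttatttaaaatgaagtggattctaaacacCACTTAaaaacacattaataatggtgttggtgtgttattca
Epyc, chr10:97096020-97096120: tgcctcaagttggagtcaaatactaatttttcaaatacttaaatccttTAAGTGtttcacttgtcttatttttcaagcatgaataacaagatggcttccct
Chad, chr11:94474130-94474230: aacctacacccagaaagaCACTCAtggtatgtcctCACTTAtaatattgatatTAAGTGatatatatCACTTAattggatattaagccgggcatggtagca

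The sites of NIH3T3 cells carried little signal in the embryo. Over the 26 peaks NIH3T3 Bapx1 was 6.30 times its V5 control (4.93 to 8.15), whereas vertebral column Bapx1 was 1.13 times wildtype (0.899 to 1.42) and Sox9 0.95 times IgG (0.708 to 1.27). Both embryo intervals included 1, and over all NIH3T3 peaks the values were 1.12 and 1.10. Vertebral column Bapx1 exceeded wildtype at 12 of the 26, against 55.0% of the list, and Sox9 exceeded IgG at 13, against 59.7%. In the other direction, NIH3T3 Bapx1 over V5 was 1.32 (0.640 to 2.72) at the 4 vertebral column peaks, with Bapx1 above V5 at 2 of them, against 58.9% of the list. With tags counted within 100 bp it was 3.36 (1.10 to 12.2), an interval above 1. Between the deposited peak limits it was 1.03 (0.519 to 2.02), so this value depended on the width. At the 16 Sox9 peaks it was 0.639 (0.362 to 1.09), with Bapx1 above V5 at 5, against 1.20 and 49.6% over all Sox9 peaks.

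**Figure D4:**
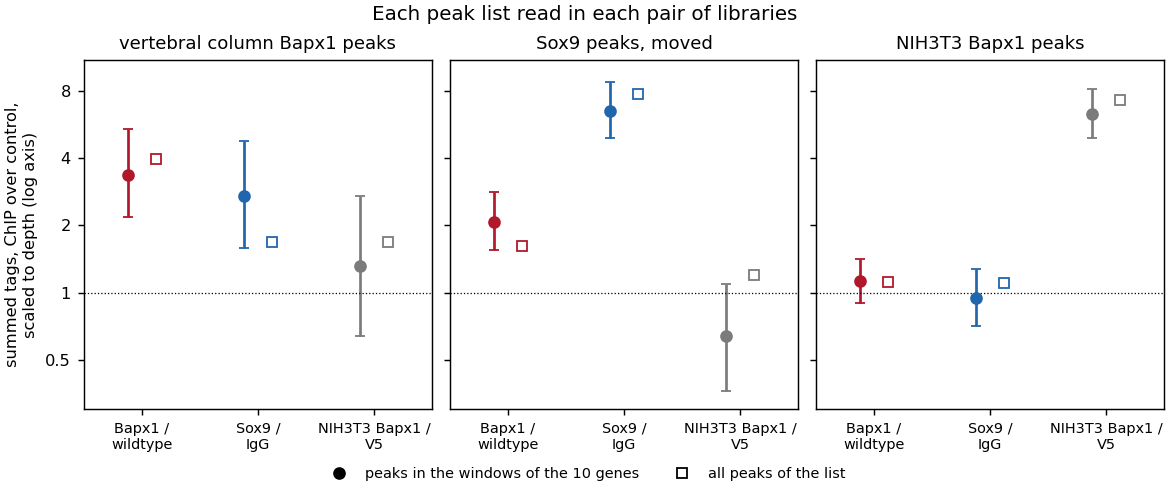
Summed ChIP over control tags, scaled to depth, on a log axis with exact 95% intervals, for the peaks of each list (panels) read in each pair of libraries; filled circles are the peaks of the 10 genes and open squares all peaks of the list. In 8 of the 9 comparisons the circle's interval holds the square, the exception being NIH3T3 Bapx1 over V5 at the Sox9 peaks.

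The Sox motif occurred within 100 bp of 5 of the 16 moved Sox9 summits, or 31.2% (11 to 58.7), against 48.8% of all moved summits, and in 21.9% of the flanks. At the deposited coordinates of the same 16 peaks it also occurred at 5, with the same share of flanks, so at these genes the motif did not separate moved from deposited summits. The 5 lay at Acan (9.23 kb upstream), in Vcan, in the second intronic site of Matn3 and at both sites near Lum. It was absent within 100 bp of the strongest sites of Matn4, Acan, Chad, Cnmd and Comp. The Bapx1 motif lay within 50 bp of 0 of the 16 moved summits, against 10.4% of all of them. No match says only that these letters do not occur in the window.

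At the TSS of the genes, with tags counted within 500 bp, Bapx1 exceeded wildtype with an interval above 1 at 2 of the 10, against 3.72% of all protein-coding genes. At Hapln1 Bapx1 had 33 tags and wildtype 9 (3.05, 1.43 to 7.26), and at Matn3 17 and 5 (2.83, 1.0 to 9.82). The call at Matn3 was borderline, as its lower limit rounds to 1.0. At Hapln1 Sox9 had 17 tags and IgG 7 (2.53, 0.998 to 7.22). Its NIH3T3 library had 1 Bapx1 tag and V5 10 (0.140, 0.00322 to 0.984), an interval below 1 that 1.95% of all genes had. At the other 8 genes the Bapx1 ratio lay between 0.625 (Matn4) and 1.80 (Matn1), with intervals that included 1. In NIH3T3 cells no TSS of the 10 had an interval above 1, against 13.4% of all genes. Each held at most 10 NIH3T3 Bapx1 tags, so this count says little about binding there. Intervals were not adjusted for the number of genes.

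**Figure D5:**
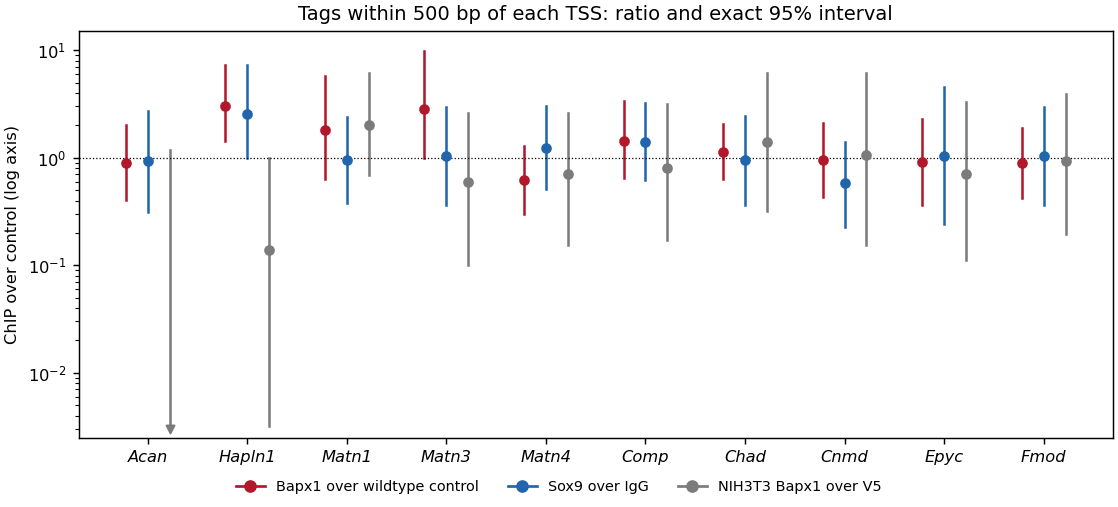
Ratio of ChIP to control tags within 500 bp of the most 5′ TSS of each gene, scaled to depth, on a log axis with exact 95% intervals, for Bapx1 over wildtype (red), Sox9 over IgG (blue) and NIH3T3 Bapx1 over V5 (grey). The red interval lies clear of 1 at Hapln1 and touches it at Matn3; an arrow at Acan marks 0 NIH3T3 Bapx1 tags against 6 of V5.

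Among 30 other genes of the matrix (further proteoglycans, link proteins, a matrilin, thrombospondins, small leucine-rich proteins and other proteins of cartilage and related matrix), 9 had a Bapx1 peak of the vertebral column in their windows, 16 a moved Sox9 peak and 29 an NIH3T3 peak. The shares over all genes are those given above. Some of these windows overlap those of the 10 genes, and Hapln3 with Acan, Vcan with Hapln1, and Lum, Kera and Dcn with Epyc held the same Sox9 peaks, while Prelp and Optc shared the Bapx1 peak of Fmod. Both factors had peaks at 5, Vcan, Thbs1, Prelp, Optc and Mia. Neighbours within the list also shared peaks: Prelp and Optc 1 Sox9 peak, Ncan and Hapln4 1 Bapx1 peak, and Bcan and Hapln2 1 Sox9 peak. The counts of genes are therefore not counts of separate sites. Here some peaks lay at the promoter of the listed gene itself, which none did among the 10. With 30 genes against 10, and no share over all genes counted, this is not read as a difference. The Bapx1 peak of Vcan lay 94 bp from its TSS, and at Mia, a secreted protein of cartilage, the Bapx1 peak lay 356 bp and the Sox9 peak 308 bp from the TSS. Sox9 peaks also lay 91 bp from the TSS of Chadl, 175 bp from that of Prelp and 1056 bp from that of Lum.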

How the data were processed

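The tag lists give the positions of reads of 35 bases that the authors had mapped, by their methods to mm9 with unique matches, and tags were counted here from these deposited positions. The deposited peak lists came from MACS (p cutoff 1e-05, band width 300, each ChIP against its control), and give per peak the authors' tag count, 10 times −log10 of p, fold enrichment as a ratio, and FDR in percent. No value in them was changed. The repeated positions of the NIH3T3 pair (2.36% and 6.53% of tags) were reduced to 1 per strand, and the 4 embryo libraries held none.

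Tags within 200 bp of a summit (500 bp of a TSS) were compared as ChIP over control after scaling to library totals, with exact (Clopper-Pearson) intervals of the ChIP share. PCR reads without molecular identifiers are not independent molecules, so these intervals cover counting error only. A control count of 0 stayed 0 in sums and intervals, and 3 tags stood in for it only in the ratio of 4.87 printed for Matn3.

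The Sox9 and IgG positions run past the ends of 5 mm9 chromosomes, with 4970 and 4788 tags up to 345975 bp beyond. In the vertebral column Bapx1 library 1 tag and in its wildtype control 4 tags passed an end, by at most 34 bp, and in the NIH3T3 pair 0 did. For each peak, tags in bins of 50 bp over 200 kb, without 1 kb either side of the summit, were matched to both vertebral column mm9 libraries at up to 10 Mb, and a displacement was clear if its match was at least 1.5 times the next best. It was then settled within 100 bp over 1 Mb. Sites without a clear displacement were left out. Simulated data with known answers were used to test these steps. Genes came from the mm9 annotation (GENCODE), and sequences from the mm9 reference.

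The members and lists were chosen with earlier results of these data known. The genes named are the 10 members, every vertebral column Bapx1 and moved Sox9 peak in their windows, the nearest and the smallest-p NIH3T3 peak of each, the genes of the TSS nearest to these, and other matrix genes with an embryo peak. The weaker Acan peak in NIH3T3 cells was also named, outside this rule. The weaker Matn4 peak in NIH3T3 cells and the genes at the introns were named after their values were seen. Python 3.11.15, numpy 2.4.6, pandas 2.3.3, scipy 1.17.1 and matplotlib 3.10.9 were used.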

Additional observations from a re-analysis of the deposited data

How the results depend on the processing

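Of 56 alternatives to 13 results, 43 left the value within its interval or within 1.5 times the count, 13 moved it and 0 reversed it. Bapx1 peaks of the vertebral column lay at 4 genes, at 2 (Matn4 and Fmod) with 50 kb either side (16.1% of all genes), at 1 (Fmod) with p of at most 1e-10 (6.93%) and at 0 with an FDR of at most 5% (0%). The NIH3T3 count of 10 became 6 with p of at most 1e-10, against 36.4% of all genes. The Sox9 count of 8 became 2 (Acan and Matn4) with an FDR of at most 5%, against 5.92% of all genes. It became 4 with the displacement from the IgG tags alone (16.8% of all genes) and 4 with the NIH3T3 libraries as reference (8.46%), where fewer peaks had a clear displacement. At the deposited coordinates, an alternative chosen after seeing the data, it was 3, against 28.3% of all genes. With tags counted within 100 bp, NIH3T3 Bapx1 over V5 was 9.18 in place of 6.30 at the NIH3T3 peaks, and 3.36 (1.10 to 12.2) in place of 1.32 at the 4 vertebral column peaks. Between the deposited peak limits the latter was 1.03 (0.519 to 2.02). Without the Matn4 peak, also chosen after seeing the data, Sox9 over IgG at the vertebral column peaks was 1.56 in place of 2.71. With p of at most 1e-10 the Bapx1 motif lay at 100% of 6 NIH3T3 summits and at 0% of the 1 vertebral column summit left. The shares over the whole lists at that p were not counted. Except where stated, the causes were not tested. No paired analysis was possible because each condition had 1 library. With 12 to 59 Sox9 tags and 22 to 28 Bapx1 tags at a called summit, ratios were known only within wide intervals.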
